A study of Mus musculus with 4 samples.

Results

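The T cell receptor (TCR) complex and the proteins that carry its signal away from the membrane were examined as a set of 47 genes, taken by symbol from the deposited count table and the regularized log table. All 47 were found among the 38924 gene identifiers of the tables, and all 47 passed the filter on low counts that left 14235 genes for testing. The data are RNA sequencing libraries from splenic regulatory T cells (Treg) of mice, 2 libraries of resting Treg and 2 of activated Treg, from independent animals. The resting population is labelled rTreg and the activated one aTreg, and the labels print 1 gate for both, of CD4+Foxp3+ cells that are low for CD44. The design text asks how the transcriptomes of the 2 populations compare. It names no agent, allele or transgene for either group, and the labels give no strain, age or sex. In the sequenced RNA, Cd44, an adhesion receptor used in the gate, stood at 145 and 213 CPM (counts scaled to a common library size) in the resting and at 329 and 335 in the activated libraries, with a log2 fold change of 0.89 ± 0.23 (0.63 without resting A and 1.18 without resting B). DESeq2 called it higher (adjusted p = 0.0417, where an adjusted p under 0.05 is a call) and edgeR did not (adjusted p = 0.363). Foxp3, the defining transcription factor of Treg, stood between 35.0 and 38.7 CPM in all 4 libraries.

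As background, the TCR is a pair of antigen-binding chains held in the membrane with the CD3 chains, whose tails carry tyrosine motifs. Lck and Fyn phosphorylate these motifs, Zap70 binds them and phosphorylates the adaptors Lat and Lcp2 (SLP-76), and the adaptors recruit enzymes that open the calcium, Ras and NF-kB branches. Phosphatases, lipid kinases and inhibitory adaptors oppose each step. Treg need TCR signals to keep their suppressive function, and Treg of the activated phenotype are known to depend on them.

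By edgeR's quasi-likelihood test, adjusted over all 14235 genes, 0 of the 47 members were called higher and 0 lower, where the test called 0% of all genes in each direction. At an unadjusted edgeR p under 0.05, 7 members were lower in activated Treg, which is 14.9% of the members beside 2.61% of all tested genes, and 2 were higher, 4.26% beside 6.3%. Among the 8379 tested genes with a mean of 10 CPM or more, a level that every member reached, the same shares were 3.41% lower and 3.77% higher. The 7 were Txk, Rasgrp2, Grap2, Pag1, Rasgrp1, Ppp3ca and Prkcq, and the 2 were Sla and Ptpn22. DESeq2, adjusted over all genes, called Txk and Rasgrp2 lower and no member higher, 2 and 0 of 47, where it called 0.829% of all genes lower and 2.28% higher. limma-voom called 0 members. The groups did not overlap in 19 members, with activated values lower in 12 (25.5%) and higher in 7 (14.9%), beside 21.4% and 13.8% of genes of 10 CPM or more and 17.4% and 19.8% of all tested genes. The share of separated members was thus near that of genes of 10 CPM or more, while the share with a small unadjusted p was higher on the lower side. Those genes share only the minimum level and were not matched to the members in level. The members were chosen with earlier results of these data known, and the level minimum after seeing the data. The shares are therefore a description. The median log2 fold change of activated over resting was -0.05 for the members and -0.01 for all tested genes. The members' median changed sign when a library was left out, to 0.052 without resting B and 0.028 without activated A. The number of members lower at an unadjusted p under 0.05 also changed with the library left out. No share of all genes was counted in those fits. Without resting A the log2 fold changes of Txk and Rasgrp2 were -1.05 and -1.21, and without activated B both were -1.25.

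Some properties of the libraries move with the values that follow. Totals ran from 20282062 to 31851982 counts. Resting A and activated A held macrophage transcripts, with 8 markers summing to 507 and 471 CPM against 13.95 and 45.7 in the B libraries, and resting B held the most transcripts of 10 proliferation genes (1378 CPM against 381 to 1009). Markers of plasmacytoid dendritic cells were higher in both activated libraries for 8 of 8 genes, with sums of 961 CPM in activated A, 283 in activated B, and 73.2 and 73.6 in the resting libraries. Conventional dendritic cell markers (7 of 7 genes) summed to 104 and 36.3 CPM against 11.2 and 7.499. Of 7 measured B cell markers 2 were higher and 3 lower in both activated libraries, and their sums ran from 758 to 1910 CPM. Cd8a and Cd8b1 were higher in both activated libraries, with sums between 27.2 and 81.7 CPM. Erythroid genes followed the macrophage genes, at 26.0 and 14.5 CPM in the A libraries and 0.946 and 1.92 in the B libraries. Of 6 markers each, neutrophil genes summed to at most 1.27 CPM and NK cell genes to between 19.7 and 35.7, with 3 of 6 at 0 in both resting libraries in each list. The 3 measured gamma delta T cell genes summed to between 8.14 and 17.4 CPM. The alpha beta T cell markers themselves, Cd3 chains, Trac, Trbc2 and Cd4, summed to between 5904 and 8277 CPM. In such bulk libraries fewer cells of a type and less RNA per cell cannot be told apart, and the part of other cells in the differences was not tested beyond the values given with each gene.

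The 4 libraries also differed by transcript length. Across the 47 members, the log2 ratio of resting A to resting B correlated with exon length (Spearman correlation 0.51), as did that of activated A to activated B (0.56). Over 8334 genes of 10 CPM or more with a count in every library these were 0.34 and 0.42, and the correlation of length with the fold change of activated over resting was -0.30 for members and -0.13 for those genes. These are correlations across genes that share the same 4 libraries, given as a description. In both groups the B library was above the A library in 23 members and the A library above the B library in 16, beside 3344 (40.1%) and 3130 (37.6%) of the 8334 genes. The letters name columns, and the labels pair no libraries.

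Per kilobase of exon, 5 of the 7 receptor chains were among the 6 most abundant members in resting Treg, while Cd3d (487 ± 60.7) lay below Lat and Ptprc, and Cd247 (105 ± 7.44) below all 4 coreceptors. Trac, the alpha chain constant region, stood at 1953 ± 247 CPM per kilobase (SD, n = 2) in resting Treg, Trbc2 at 1166 ± 144, and Cd2, Cd3e and Cd3g at 1133 ± 199.8, 1075 ± 130.1 and 1043 ± 153. Lck, at 848 ± 135, and Lat, at 564 ± 30.4, led the kinases and the adaptors. The lowest levels were those of Sos1 (3.72 ± 1.72) and Orai1 (4.84 ± 1.68). Neighbours such as Cd2, Cd3e and Cd3g lay within 1 SD of each other, and the length of the constant region genes depends on which transcripts are counted.

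**Figure D1:**
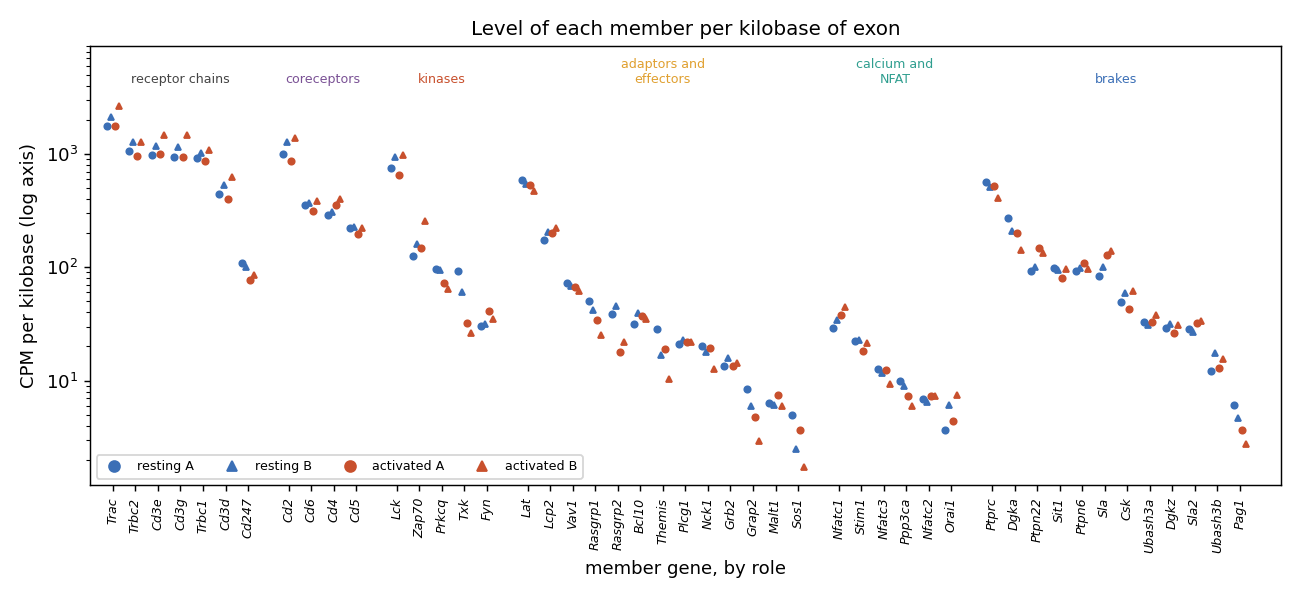
Level of each of the 47 members in CPM per kilobase of exon (log axis), ordered by role and, within a role, by level in resting Treg. Circles are A libraries and triangles B libraries, blue resting and red activated. Trac, Trbc2, Cd3e, Cd3g and Trbc1 stand near the top with Cd2 and Lck, Cd247 stands lower, and the 4 points of most genes lie close together.

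The receptor chains overlapped between the groups, with the exception of Cd247, 1 of 7 (14.3%), with lower activated values. Of all tested genes 17.4%, and of genes of 10 CPM or more 21.4%, were lower in activated Treg without overlap. Cd3e, which pairs with each of the Cd3d and Cd3g chains, stood at 1437 and 1706 CPM in the resting and at 1456 and 2138 in the activated libraries, A before B here and in all values that follow. Cd3g stood at 957, 1178, 958 and 1515 CPM in this order, and Cd3d at 717, 856, 649 and 1010. In these 3 genes the A libraries were low, activated B was the highest library, and the groups overlapped. Trac had 734 and 879 CPM in resting and 735 and 1102 in activated Treg, the same order of libraries. Log2 fold changes of Cd3d, Cd3e, Cd3g and Trac lay between 0.08 and 0.21 with SE between 0.24 and 0.27, and without activated B they turned to -0.28, -0.12, -0.16 and -0.14.

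Cd247 encodes the zeta chain, which carries the most signalling motifs of the complex. It stood at 502 and 454 CPM in resting Treg and at 351 and 387 in activated Treg, so the activated values were lower without overlap, while the other CD3 chains overlapped. Its log2 fold change was -0.37 ± 0.17 (SE) and did not pass (edgeR unadjusted p = 0.0745, adjusted p = 0.651). On the opposite strand 2918 of the 4558 bases of the Cd247 exons are shared with Pou2f1. Neither a strand setting nor a rule for shared reads is stated. The counts of Cd247 may therefore include reads of Pou2f1 or lack reads of its own. Its level per kilobase would move with them. Whether Cd247 differed from the other chains was not tested.

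The beta chain has a pair of constant region genes, Trbc1 and Trbc2, next to each other on chromosome 6 (41538218 to 41539881 and 41546730 to 41548352, plus strand, mm10). Their coding parts are 518 bases long and differ at 23 positions (95.6% identical), with 259 bases in a row without a difference, so that many reads cannot be assigned to 1 of them. The last 60 coding bases, positions 459 to 518 of the constant region from GENCODE M21, hold 11 of the differences. They are printed to show where reads can tell the genes apart, with the differing bases in capitals:
Trbc1: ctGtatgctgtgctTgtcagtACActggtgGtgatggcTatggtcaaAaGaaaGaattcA
Trbc2: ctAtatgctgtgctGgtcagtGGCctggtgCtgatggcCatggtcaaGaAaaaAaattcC
Trbc1 stood at 473 and 520 CPM in resting and 446 and 551 in activated Treg, and Trbc2 at 737, 878, 662 and 882. The ratio of Trbc1 to Trbc2 per kilobase was 0.867 and 0.801 in resting and 0.912 and 0.845 in activated Treg, overlapping between the groups. The exon lengths used were 512 bases for Trbc1, under the 518 coding bases above, and 692 for Trbc2. The size of the ratio depends on these lengths, but its comparison between libraries does not. The labels do not say how reads shared by both genes were counted.

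**Figure D2:**
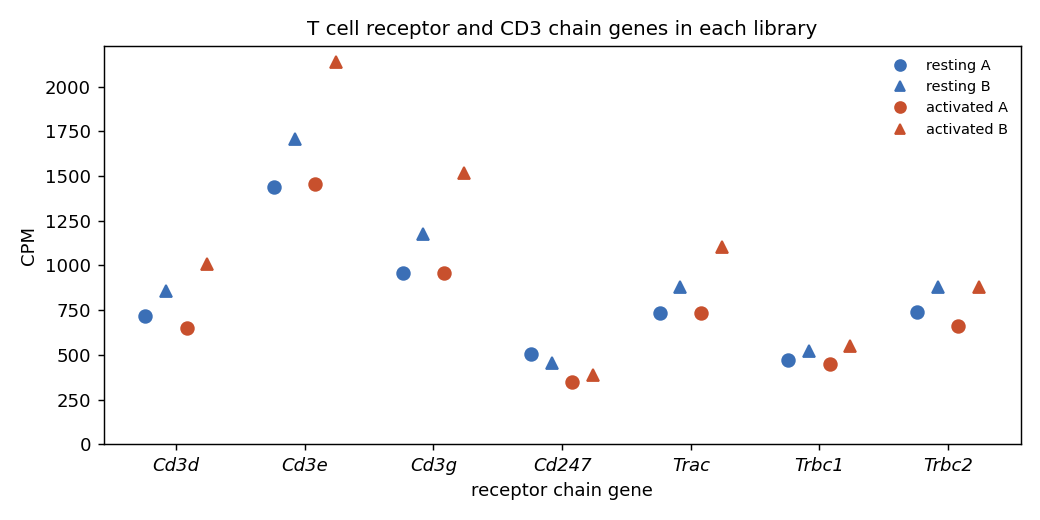
CPM of the 7 receptor chain genes in each library, resting in blue and activated in red, circles for A and triangles for B. The groups overlap for every gene but Cd247, where the activated libraries (351 and 387 CPM) lie under the resting ones (454 and 502 CPM).

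Coreceptors and costimulatory adhesion molecules were at similar levels in both groups. Cd2, an adhesion receptor that strengthens contact with the partner cell, stood at 1143 and 1469 CPM in resting and at 1010 and 1596 in activated Treg, with both activated values outside the resting range on opposite sides. Cd4, which brings Lck to the receptor, stood at 896 and 966 CPM in resting and at 1094 and 1244 in activated Treg. It did not pass (log2 fold change 0.33 ± 0.17, edgeR unadjusted p = 0.103). Cd4 was the only gene of the 4 in this role with no overlap (25%). Of genes of 10 CPM or more 13.8%, and of all tested genes 19.8%, were higher in activated Treg without overlap. Cd5 and Cd6, scavenger receptor proteins that dampen TCR signals, had log2 fold changes of -0.09 ± 0.16 and -0.05 ± 0.18. The ratio of Cd5 to Cd6 per kilobase kept to a narrow range, 0.623 and 0.61 in resting and 0.623 and 0.579 in activated libraries.

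**Figure D3:**
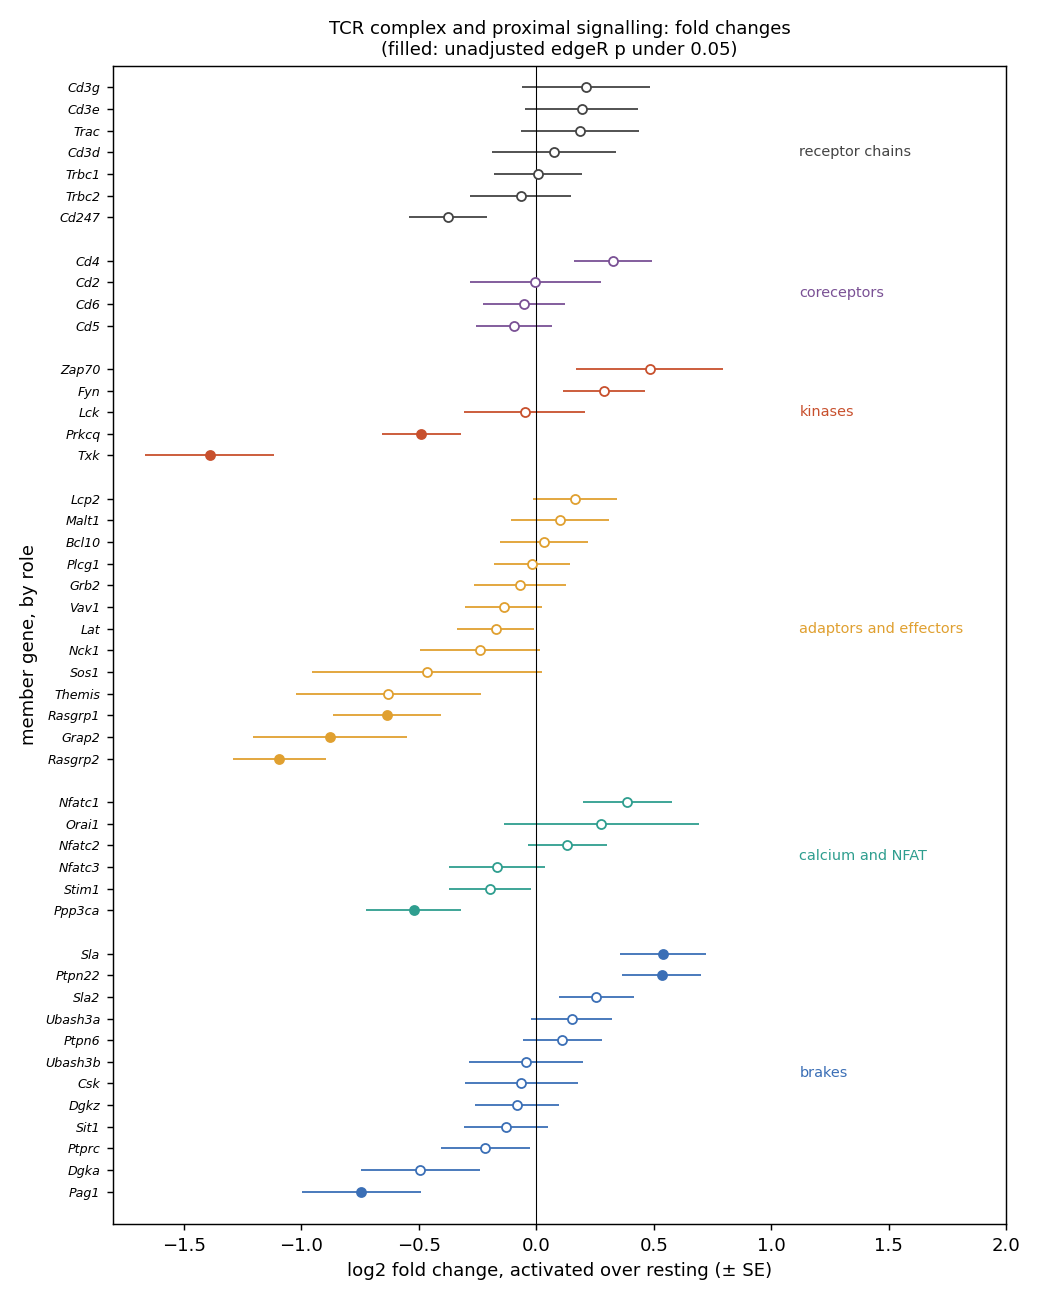
Log2 fold change of activated over resting Treg with its SE for the 47 members, grouped by role, from edgeR. Filled points have an unadjusted p under 0.05. Of these, 7 lie below 0, 5 of them among the 18 kinases, adaptors and effectors (27.8%). The other 2 lie above 0, both among the 12 brakes (16.7%). Of genes of 10 CPM or more, 3.41% were lower and 3.77% higher at that p.

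The start regions of the members were read for short motifs of factors active in T cells. RefSeq promoter windows (GRCm38.p6) were matched for 36 of the 47 members, taking the 250 bases before the RefSeq start nearest the GENCODE start. That start lay 50889 bases away for Grap2, 12301 for Dgkz, 8669 for Grb2, 3635 for Ubash3b and 1458 for Bcl10. Of the window, 250 bases for Prkcq, 193 for Ubash3a, 124 for Rasgrp1 and 94 for Dgkz lay in the gene's own exons. All 36 windows are counted below, whatever their place. GTAAACA, a forkhead core, was found on either strand in 3 of 36 members (8.33%) and in 3.17% of all 32851 windows. AGGAAG, an ETS core, was found in 21 of 36 (58.3%) against 29.5% of all windows. TGTGGT (Runx) was found in 3 of 36 against 14%, CACCC (Kruppel-like) in 20 of 36 against 52%, and TGGAAA (NFAT) in 7 of 36 against 18.6%. These are matches of letters, not sites. The windows of the 2 members that DESeq2 called lower, and of Ptpn22, are printed with the gene, 5′ to 3′ on its own strand, with matches of these motifs in capitals and no match overlapping another.

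Among the kinases 2 of 5 had a fold change above 0 and 3 below, and Txk, a Tec family kinase expressed in T cells that phosphorylates targets such as Plcg1, had the log2 fold change farthest from 0 among the 47 members. Txk stood at 228 and 147 CPM in resting and at 78.9 and 64.0 in activated Treg. The activated values were well under the resting ones, although the resting libraries differed from each other. Its log2 fold change was -1.39 ± 0.27 (edgeR unadjusted p = 0.00367, adjusted p = 0.29), and DESeq2 called it lower (adjusted p = 0.000712). Leaving out 1 library gave values from -1.68 to -1.05, and without resting B edgeR called it too (adjusted p = 0.0456). With no filter on low counts edgeR called both Txk and Rasgrp2. Between the libraries with macrophage transcripts the difference was -1.53 and between those with few it was -1.20, and without activated A, the library with the most dendritic cell transcripts, the fold change was -1.54.

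The window before the Txk start, shown because Txk was called, held 1 CACCC and 1 AGGAAG match:
Txk (chr5:72752778-72753027, minus strand): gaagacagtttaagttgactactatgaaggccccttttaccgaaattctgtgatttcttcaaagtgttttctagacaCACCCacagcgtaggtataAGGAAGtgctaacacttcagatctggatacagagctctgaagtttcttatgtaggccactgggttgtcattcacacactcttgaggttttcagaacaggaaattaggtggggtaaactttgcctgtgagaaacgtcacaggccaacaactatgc

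Prkcq, the protein kinase C theta of the NF-kB branch, stood at 343 and 339.9 CPM in resting and at 258 and 228 in activated Treg. The resting libraries were almost equal and both activated ones were lower (log2 fold change -0.49 ± 0.17, edgeR unadjusted p = 0.0317, adjusted p = 0.484, DESeq2 adjusted p = 0.248). Lck, the kinase that starts the cascade, stood at 1743 and 2187 CPM in resting and at 1515 and 2284 in activated Treg and overlapped fully. Fyn, its relative, stood at 117 and 120.3 CPM in resting and at 157 and 133 in activated Treg, higher without overlap (log2 fold change 0.29 ± 0.18, edgeR unadjusted p = 0.159). Zap70, which binds the phosphorylated receptor, stood at 282 and 364 CPM in resting and at 332 and 571 in activated Treg, and its log2 fold change of 0.48 ± 0.31 was 0.03 without activated B. Lck exceeded Fyn per kilobase by 24.7 and 30.1 times in resting and by 15.99 and 28.5 times in activated libraries.

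Of the 13 adaptors and effectors, 10 had a log2 fold change below 0, beside 4911 of the 8379 genes of 10 CPM or more. The median log2 fold change of the 13 was -0.17, beside -0.05 for those genes. At an unadjusted edgeR p under 0.05, 3 were lower (23.1%), beside 3.41% of genes of 10 CPM or more and 2.61% of all tested genes. The 3 were Rasgrp2, Grap2 and Rasgrp1. Rasgrp2 encodes an exchange factor for the small GTPase Rap1, which activates integrins. It stood at 155 and 183 CPM in resting and at 71.5 and 86.9 in activated Treg, with little spread within either group. Its log2 fold change was -1.09 ± 0.20 (edgeR unadjusted p = 0.00249, adjusted p = 0.284), DESeq2 called it lower (adjusted p = 0.000982), and leaving out 1 library gave values from -1.25 to -0.95. The difference was -1.12 between the libraries with macrophage transcripts and -1.07 between those with few, and -0.95 without activated A, the library with the most dendritic cell transcripts.

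The RefSeq start used for Rasgrp2 lay 535 bases inside the gene, counted from its GENCODE start. The window before that RefSeq start, shown because DESeq2 called Rasgrp2 lower, held 3 matches of GGGTG, the other strand of CACCC:
Rasgrp2 (chr19:6399625-6399874, plus strand): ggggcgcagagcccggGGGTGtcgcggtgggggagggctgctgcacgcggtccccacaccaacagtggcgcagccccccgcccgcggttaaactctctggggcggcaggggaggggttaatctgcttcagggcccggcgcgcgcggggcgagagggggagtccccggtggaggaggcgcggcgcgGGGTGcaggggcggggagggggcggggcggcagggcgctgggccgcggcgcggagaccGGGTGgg

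Rasgrp1, the exchange factor that activates Ras below the TCR, stood at 265 and 221 CPM in resting and at 181 and 132 in activated Treg. Grap2 (GADS), the adaptor that links Lat to Lcp2, stood at 47.2 and 33.3 CPM in resting and at 27.02 and 16.6 in activated Treg. In both genes the activated libraries lay below the resting ones, and A was above B in each group. Their log2 fold changes were -0.63 ± 0.23 and -0.88 ± 0.33 (edgeR unadjusted p = 0.0378 and 0.0426, adjusted p = 0.51 and 0.529), and neither was called by DESeq2 (adjusted p = 0.265 and 0.276). Without activated B they were -0.43 and -0.58, and without activated A -0.87 and -1.26.

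The other 10 adaptors and effectors had no unadjusted edgeR p under 0.05. Lat stood at 729 and 676 CPM in resting and at 657 and 591 in activated Treg, lower without overlap (log2 fold change -0.17 ± 0.16). Lcp2 stood at 722 and 856 CPM in resting and at 833 and 939 in activated Treg. Plcg1, the phospholipase that makes the calcium and diacylglycerol signals, stood at 119 and 129 CPM in resting and at 123 in both activated libraries. Vav1, Grb2, Nck1, Bcl10 and Malt1, an exchange factor of the actin branch, adaptors of the Ras and actin branches and partners in the NF-kB branch, had log2 fold changes between -0.24 and 0.10. Themis, a T cell lineage protein, and Sos1, a Ras exchange factor, had -0.63 ± 0.39 and -0.46 ± 0.49, and in both the A library exceeded the B library by more than 1.5 times within each group. Without resting A they were -0.21 and 0.09, and without activated A -1.11 and -1.09.

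Of the 6 calcium and NFAT members only 1 (16.7%) had an unadjusted edgeR p under 0.05. It was lower, beside 3.41% of genes of 10 CPM or more. This was Ppp3ca, a catalytic subunit of calcineurin. It stood at 47.7 and 43.2 CPM in resting and at 34.6 and 28.6 in activated Treg (log2 fold change -0.52 ± 0.20, edgeR unadjusted p = 0.049, adjusted p = 0.556). Nfatc1, the NFAT member with the highest level per kilobase, lay in the other direction, at 215 and 254 CPM in resting and 281 and 333 in activated Treg, without overlap (0.39 ± 0.19, edgeR unadjusted p = 0.0955). Nfatc2 stood at 57.9 and 54.0 CPM in resting and 61.4 and 61.3 in activated Treg, and Nfatc3 overlapped. Stim1, the calcium sensor of the endoplasmic reticulum, and Orai1, the channel it opens, had log2 fold changes of -0.20 ± 0.17 and 0.28 ± 0.42. Orai1 was the member with the fewest reads, at 6.85 to 13.9 CPM.

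Among the 12 brakes on the receptor, 2 were higher (16.7%) and 1 lower (8.33%) at an unadjusted edgeR p under 0.05. Of genes of 10 CPM or more 3.77% were higher and 3.41% lower at that p, and of all tested genes 6.3% and 2.61%. With so few genes in a role these shares are a description. Ptpn22, a phosphatase that removes phosphate from Lck and Zap70, stood at 254 and 278 CPM in resting and at 404 and 366 in activated Treg. Sla (SLAP), an adaptor that promotes removal of the TCR from the surface, stood at 268 and 325 CPM in resting and at 411 and 449 in activated Treg. Both genes were higher in both activated libraries, by 0.53 ± 0.17 and 0.54 ± 0.18 on the log2 scale (edgeR unadjusted p = 0.0238 and 0.0315, adjusted p = 0.439 and 0.482), and DESeq2 called neither (adjusted p = 0.178 and 0.269). Without activated A, the library with the most dendritic cell transcripts, these were 0.47 and 0.61. Without resting A they were 0.46 and 0.40, and neither had an unadjusted edgeR p under 0.05 without resting A or without resting B. Without activated A only Sla of the pair had one, and without activated B only Ptpn22. Sla2, the relative of Sla, stood at 88.9 and 83.0 CPM in resting and 101 and 105 in activated Treg (0.26 ± 0.16, edgeR unadjusted p = 0.171).

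The window before the Ptpn22 start, shown as that of a brake with higher values, held 1 GGGTG and 1 CTTCCT match, the latter 9 to 4 bases before the start:
Ptpn22 (chr3:103859545-103859794, plus strand): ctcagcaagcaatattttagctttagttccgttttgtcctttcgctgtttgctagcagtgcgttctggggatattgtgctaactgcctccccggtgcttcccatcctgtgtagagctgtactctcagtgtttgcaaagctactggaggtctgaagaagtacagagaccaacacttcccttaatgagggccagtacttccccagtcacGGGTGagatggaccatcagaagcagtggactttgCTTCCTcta

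Pag1, the membrane adaptor that anchors the inhibitory kinase Csk, lay on the lower side. It stood at 50.1 and 38.5 CPM in resting and at 30.3 and 22.5 in activated Treg (log2 fold change -0.74 ± 0.25, edgeR unadjusted p = 0.0317, adjusted p = 0.484), while Csk itself overlapped (166 and 197 against 143 and 205 CPM). Dgka, a lipid kinase that removes diacylglycerol, stood at 775 and 594 CPM in resting and at 573 and 400.03 in activated Treg, without overlap by a narrow margin (-0.49 ± 0.25, edgeR unadjusted p = 0.109), and omitting activated B gave -0.26, omitting activated A -0.77. Its relative Dgkz had -0.08 ± 0.18. Ptprc (CD45), which both activates and restrains Lck, stood at 2907 and 2636 CPM in resting and at 2680 and 2091 in activated Treg and was the brake with the highest level. Ptpn6 (SHP-1), Ubash3a, Ubash3b and Sit1, which act as phosphatases or inhibitory adaptors, had log2 fold changes between -0.13 and 0.15.

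**Figure D4:**
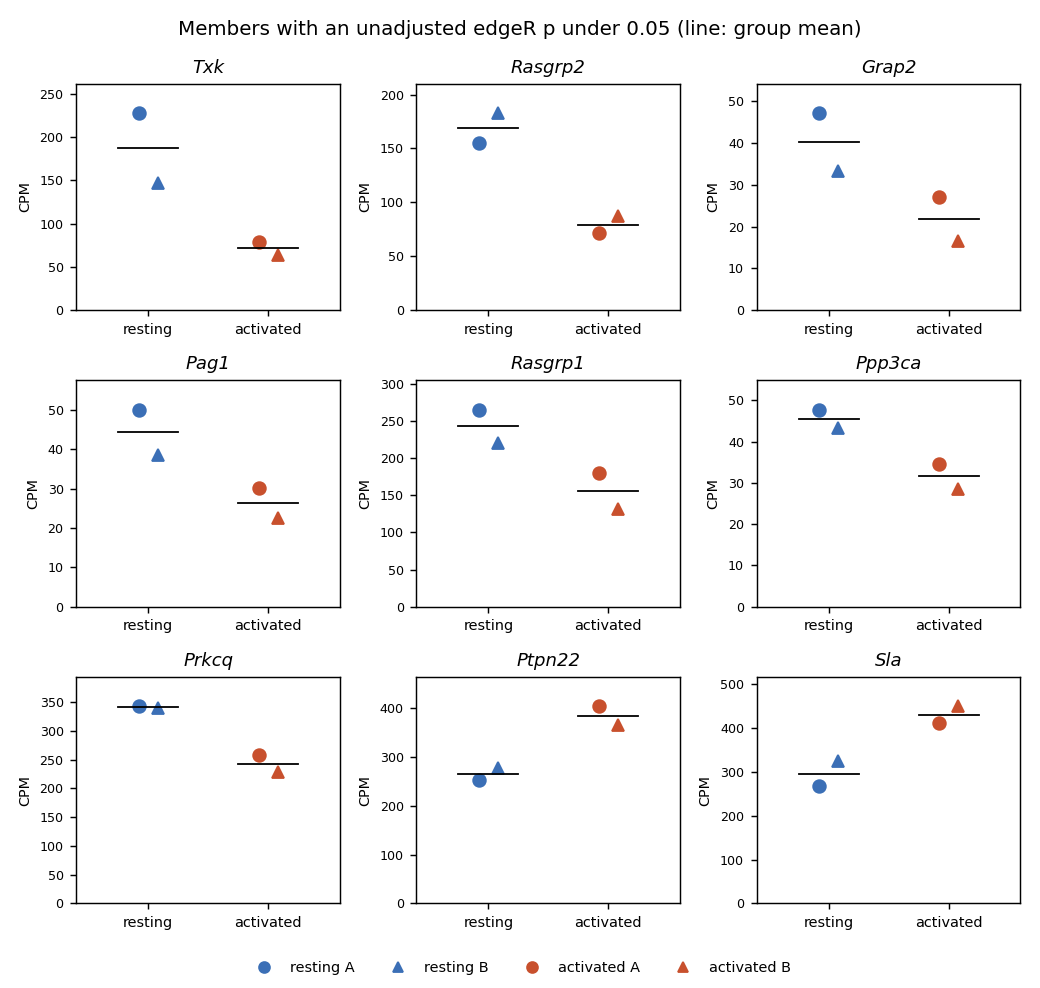
CPM in each library of the 9 members with an unadjusted edgeR p under 0.05, on axes that start at 0, with the group mean as a line. In the first 7 panels the activated libraries lie under the resting ones, and for Ptpn22 and Sla both lie above.

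Ratios between related genes within a library do not depend on how libraries are scaled to each other, and 9 pairs were compared as values only. The ratio of Sla to Sla2 per kilobase was 2.91 and 3.79 in resting and 3.95 and 4.16 in activated libraries, without overlap. Nfatc2 to Nfatc3 was 0.546 and 0.555 in resting and 0.597 and 0.781 in activated libraries, also without overlap. The other 7 pairs overlapped between the groups. Rasgrp1 to Rasgrp2, both with lower values in activated Treg, was 1.30 and 0.919 in resting and 1.93 and 1.16 in activated libraries, and Dgka to Dgkz was 9.47 and 6.61 against 7.71 and 4.54. The smallest p of an exact permutation test, two-sided, would be 0.33 with this number of libraries, so the ratios were not tested. This is also the share of all orders of 4 libraries in which the groups do not overlap. Pairs without overlap are therefore given as values, not as a result.

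**Figure D5:**
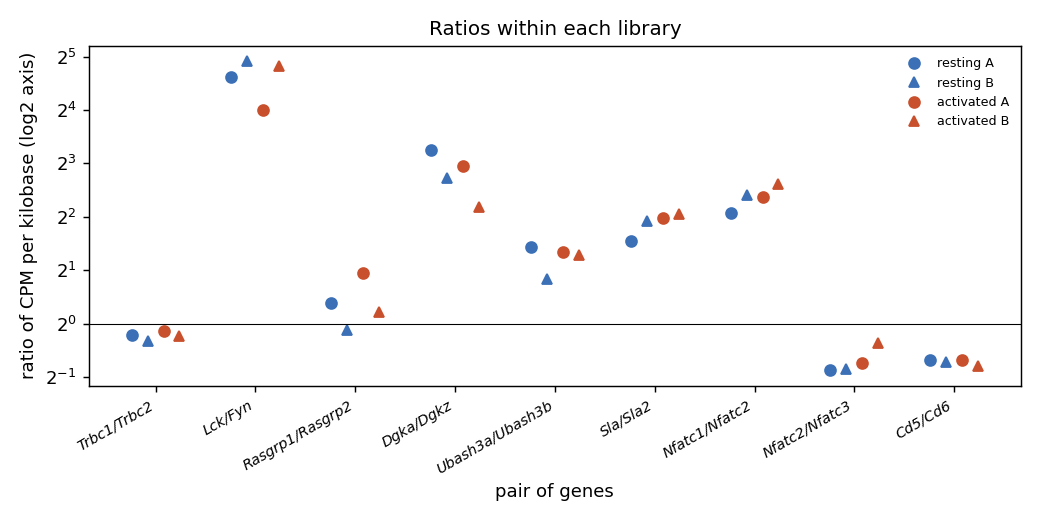
Ratio of CPM per kilobase for 9 pairs of members within each library (log2 axis, line at a ratio of 1), resting in blue and activated in red, circles for A and triangles for B. Sla to Sla2 (at most 3.79 in resting and at least 3.95 in activated libraries) and Nfatc2 to Nfatc3 do not overlap between the groups. In several other pairs, Rasgrp1 to Rasgrp2 and Dgka to Dgkz among them, A and B differ within each group.

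A further 72 genes of the same pathway were listed without the members, also with earlier results of these data known. The 72 gave 0 calls by edgeR or DESeq2 over all genes. At an unadjusted edgeR p under 0.05, 6 were higher (8.33%) and 4 lower (5.56%), beside 6.3% and 2.61% of all tested genes. The median log2 fold change of the 72 was -0.04. The higher ones were Lax1, a membrane adaptor that restrains lymphocyte receptors (0.91 ± 0.25), Dok1, an inhibitory docking protein (0.74 ± 0.23), Orai3, a calcium channel (1.09 ± 0.37), Rcan1, an inhibitor of calcineurin (1.28 ± 0.38), Ptpn11 (0.48 ± 0.18) and Gab2 (2.33 ± 0.55). Gab2 was near the limit of detection in resting Treg, at 0.291 and 0.261 CPM against 1.96 and 1.43. Lax1 stood at 90.2 and 124 CPM in resting and 172 and 231 in activated Treg. The lower ones were Dgkd, a lipid kinase related to Dgka (-0.86 ± 0.25), the small GTPase Nras (-0.49 ± 0.18), Rcan3 (-0.49 ± 0.18) and Evl, an actin regulator (-0.49 ± 0.18). Among the genes with the highest levels per kilobase, Calm2, a calmodulin gene, and Tbc1d10c, a calcineurin inhibitor, had log2 fold changes of 0.12 ± 0.26 and -0.04 ± 0.19.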

How the data were processed

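RNA of 4 libraries, 2 of resting and 2 of activated splenic Treg, was prepared with a column kit and with a template-switching kit for low inputs, per the labels' protocols. Such libraries have no molecular identifiers, so counts are reads. STAR 2.4.0c, featureCounts, DESeq2 and mm10 are named in the submitters' processing notes. For the annotation release and the strand setting, nothing is given in the sources used here. The authors deposited raw counts per gene and a table of regularized log2 values from DESeq2, from -2.33 to 19.8. The count table's headings repeat 1 name over both columns of a group, so its columns were assigned to groups only; the letters A and B name columns and pair nothing. Symbols, positions and lengths (exons of basic transcripts) are from GENCODE M21, on mm10, which matched 37607 identifiers.

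Genes were kept by filterByExpr (minimum count 10, minimum total 15) and tested by edgeR's quasi-likelihood test (edgeR 4.0.16 in R 4.3.3) with group as the only term and Benjamini-Hochberg adjustment over all genes, at a threshold of 0.05. TMM factors lay between 0.963 and 1.04, the biological coefficient of variation was 0.352, and 1 CPM equals 20.3 counts in the smallest library. Fold changes use a prior count of 2, and the SE was taken as the size of the log2 fold change divided by the root of F. CPM means and SDs are over 2 libraries. The fits were tested on simulated data. Alternatives were DESeq2 1.42.0, limma-voom and limma 3.58.1 on the regularized log values, other normalizations, no filter, each library left out and a replicate block. The members, their roles and the lists were chosen with earlier results of these data known. All members are named. Of the other genes, some that the naming rule covers are not reported here. Values in each library go to receptor chains, members with an unadjusted p under 0.05 and the most abundant member of each role, with some others added after the values were seen. The level minimum of 10 CPM was also chosen after seeing the data.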

Additional observations from a re-analysis of the deposited data

How the results depend on the processing

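Genes called over all genes went from 0 higher and 0 lower to 324 and 118 by DESeq2, to 675 and 177 with no low-count filter, and with a library left out to between 0 and 334 higher and between 0 and 36 lower (omitting resting A gave 334 and 36, resting B 176 and 22, activated B 59 and 3, activated A 0 and 0). At an unadjusted p under 0.05 leaving out a library gave 0 to 2 members higher and 2 to 8 lower, and a members' median between -0.14 and 0.052, while the median was -0.0897 with no filter, where 26327 genes were tested and the median of all genes was 0.12. The replicate numbers of the regularized log table mark no shared animal in the labels. By their values they go with the letters A and B. The deviations of same-numbered libraries correlated across genes with 0.65, so this describes the same split as that between A and B. A replicate block in limma on those values called 1027 genes higher and 525 lower, of 14235 tested. Of the 47 members, 2 were higher after adjustment (Ptpn22, Sla) and 9 lower (Txk, Rasgrp2, Prkcq, Grap2, Themis, Rasgrp1, Ppp3ca, Pag1, Dgka). Before adjustment, 6 members were higher and 11 lower at 0.05. The block fit was counted before adjustment for members only, so 6 and 11 have no share of all genes beside them. Of 517 values of single members under the alternatives, 463 kept their direction and their side of the threshold, 16 kept their direction and were now called, and 38 in 22 members changed sign, none called. Trbc1 was -0.00205 by limma-voom, -0.0072 on the regularized log values with or without the replicate block and -0.0296 with no filter, where Bcl10 was -0.0012, and Cd2 was 0.026 and Plcg1 0.0052 with upper quartile factors. With each library left out, members that changed sign ranged as follows: Cd3d -0.28 to 0.37, Cd3e -0.12 to 0.45, Cd3g -0.16 to 0.51, Trac -0.14 to 0.46, Trbc1 -0.16 to 0.16, Trbc2 -0.29 to 0.14, Cd2 -0.38 to 0.30, Cd5 -0.19 to 0.000518, Cd6 -0.20 to 0.0899, Lck -0.38 to 0.23, Grb2 -0.20 to 0.0483, Nck1 -0.57 to 0.0288, Plcg1 -0.0828 to 0.0305, Sos1 -1.09 to 0.0905, Bcl10 -0.12 to 0.18, Malt1 -0.0683 to 0.25, Orai1 -0.14 to 0.67, Nfatc3 -0.36 to 0.0106, Csk -0.35 to 0.18, Ubash3b -0.29 to 0.23, Dgkz -0.21 to 0.0446, Sit1 -0.27 to 0.00157. Log2 fold changes of Txk, Rasgrp2 and the other 7 members with an unadjusted p under 0.05 kept their sign under every alternative run. The cause of these changes was not tested.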
